A study of Rattus norvegicus with 5 samples.

Results

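The genes of GABA synthesis, packaging, uptake and breakdown were followed across the cell types of the rat ventral tegmental area (VTA). The members are Gad1 (ENSRNOG00000000007), Gad2 (ENSRNOG00000018200), Slc32a1 (ENSRNOG00000015393), Slc6a11 (ENSRNOG00000005697) and Abat (ENSRNOG00000002636), 5 of the 32883 genes of the deposited tables, taken by their names in the tables. Single-nucleus RNA-seq (snRNA-seq) was performed on frozen VTA punches of 5 adult male Sprague-Dawley rats, with both sides of a rat combined into 1 library. There was 1 condition: the sample labels give a saline treatment, whereas the study calls these rats drug-naïve, and no transgene or other allele is named. Levels were therefore compared between classes of nuclei within the same rats. Barcodes with at least 1000 UMIs (unique molecular identifiers, each counting 1 captured RNA molecule), more than 200 and fewer than 5000 genes and under 5% mitochondrial UMIs were kept.

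GABA is made from glutamate by glutamate decarboxylase, which exists as the isoenzymes GAD67 and GAD65, encoded by Gad1 and Gad2. The vesicular transporter VGAT, encoded by Slc32a1, loads GABA into synaptic vesicles. Released GABA is taken up by plasma membrane transporters, among them GAT-3, encoded by Slc6a11 and known as a transporter of astrocytes, and GABA transaminase, encoded by Abat, starts its breakdown in mitochondria. In the VTA, GABA neurons are local interneurons and projection neurons that inhibit the dopamine neurons.

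The promoters of the 3 genes that mark GABA neurons are shown because Gad1 and Gad2 differed between groups of neurons and in OPCs. The sequences are those of RefSeq for assembly GRCr8, on the + strand, and capitals mark the TATA box letters TATAAA and the letters GATA (bound by the GATA factors that were used to name some neurons), on either strand. Each run ends at the base before the first base that the gene table lists.
Gad1: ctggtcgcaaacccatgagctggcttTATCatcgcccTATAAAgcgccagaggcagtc
Gad2: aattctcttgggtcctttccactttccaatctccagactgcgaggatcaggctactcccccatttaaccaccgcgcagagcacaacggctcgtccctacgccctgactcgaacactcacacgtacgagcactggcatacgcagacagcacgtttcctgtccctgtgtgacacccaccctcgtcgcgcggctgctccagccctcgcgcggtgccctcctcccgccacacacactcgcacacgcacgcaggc
Slc32a1: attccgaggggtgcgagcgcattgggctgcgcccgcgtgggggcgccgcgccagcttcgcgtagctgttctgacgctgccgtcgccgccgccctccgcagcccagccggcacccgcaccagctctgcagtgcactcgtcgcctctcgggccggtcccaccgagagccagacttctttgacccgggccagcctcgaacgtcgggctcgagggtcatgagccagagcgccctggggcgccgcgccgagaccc
The Gad1 run lies at chr3:75777202-75777259, the Gad2 run at chr17:89671468-89671717 and the Slc32a1 run at chr3:167686995-167687244. TATAAA stood 21 bases before the first listed base of Gad1, and GATA 32 bases before it. The start used for the Gad1 promoter lies inside the listed gene, 213 and 224 bases after these strings. Over the 250 bases before the start that the promoter table gives, Gad2, Slc32a1 and Slc6a11 held neither string, and 12.9% of 33469 rat promoters of that length held TATAAA and 55.9% GATA. These 250 bases had a GC content of 68.4% for Gad1, 62% for Gad2 and 73.6% for both Slc32a1 and Slc6a11, against a median of 51.2% over all promoters. For Gad1 only the 58 printed bases lie before the first listed base, and their GC content was 55.2%.

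The rule kept 22084 barcodes, 1813 to 9336 per library, from libraries of 10193355 to 88576210 UMIs, and their median depth was 1605.5 to 3526.0 UMIs. After 1068 likely doublets were set aside, nuclei were clustered without the 5 members, and 16113 nuclei fell in clusters with markers of a type. These were 4704 neurons, 8626 oligodendrocytes, 1087 astrocytes, 699 oligodendrocyte precursor cells (OPCs), 600 microglia and 397 vascular nuclei. Neurons were divided by marker genes into 1767 GABA-like nuclei (transcription factors such as Gata3 or Pax7), 867 dopaminergic-like and 167 serotonergic-like. Sub-clusters with high Slc17a6, the vesicular glutamate transporter gene, held 800 nuclei, while 1103 stayed unnamed. Unnamed neurons were not neurons without GABA genes. At the deposited depth 94.1%, 87.4%, 52.2%, 85.6% and 90.4% of them held Gad1, Gad2 or Slc32a1 in rats 1 to 5. In GABA-like nuclei these shares were 55.4%, 90.7%, 64.3%, 76.5% and 88.4%. Class sums of fewer than 10 nuclei were left out, so that dopaminergic-like and serotonergic-like nuclei lack rat 1 and OPCs lack rat 3. Rat 3 stood apart in Slc32a1, with 2.98 UMIs per 10000 in the whole library against 0.589 to 1.25 in the other 4. RNA outside nuclei (free RNA) was present in all libraries. Its share was set from lists of markers of other types, with all counts of a list taken as free RNA. The list that gave the smallest share was used, which makes the share an upper estimate. It was 3.36% to 13.3% of neuronal UMIs and 10.1% to 24.1% of oligodendrocyte UMIs. The expected free RNA of a gene is this share of its level in droplets under 100 UMIs, and it can exceed the level measured in a class. Among the kept barcodes, 50 sequences occurred in more than 1 library.

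Gad1 was high in GABA-like neurons and low in dopaminergic-like neurons, and for Gad2 the size of that difference depended on where the dopaminergic-like class was bounded. The Gad1 level in GABA-like neurons was 1.53, 2.93, 2.39, 2.15 and 3.05 UMIs per 10000 in rats 1 to 5, and 0.234, 0.032, 0.029 and 0.138 in dopaminergic-like neurons of rats 2 to 5. Every rat's GABA-like level lay above every dopaminergic-like level. In a fit across all genes (edgeR quasi-likelihood test with Benjamini-Hochberg adjustment and rat as a block), Gad1 was 4.43 ± 0.28 higher on the log2 scale (SE) in GABA-like neurons, with an adjusted p of 2.93e-13. The Gad2 level was 1.95, 3.48, 2.40, 3.11 and 4.17 UMIs per 10000 in GABA-like neurons of rats 1 to 5, and 0.358, 0.127, 0.130 and 0.254 in dopaminergic-like neurons of rats 2 to 5. These groups did not overlap either, and the log2 difference was 3.83 ± 0.26 (edgeR adjusted p = 1.10e-12). With free RNA (RNA outside nuclei) subtracted, the differences were 6.32 and 4.98. The class was bounded at 7 of 8 raised dopaminergic markers after member levels had been seen, and 251 Gad2-rich nuclei of the unnamed sub-cluster 8, with 6 of 8, lay just outside it. With them inside, the Gad2 level of the class was 5.17, 1.42, 0.563, 1.99 and 1.34 in rats 1 to 5, overlapping that of GABA-like neurons, and the difference was 0.84 (edgeR adjusted p = 0.0497), while that of Gad1 was 4.40. The p-values of Gad2 and Slc32a1 thus depend on a boundary set with their levels known. Of the 5 members, 4 passed the threshold of 0.05 in this comparison, all higher in GABA-like neurons, where 17.5% of 11938 genes passed it, 8.42% higher and 9.06% lower. The median log2 difference was 2.86 over the members and 0.02 over all genes.

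Both genes were also higher in GABA-like neurons than in the Slc17a6 sub-clusters. Gad1 in the Slc17a6 sub-clusters was 0.035, 0.295, 0.203, 0.166 and 0.165 UMIs per 10000 in rats 1 to 5, and Gad2 was 0.142, 0.384, 0.203, 0.172 and 0.420. All values of both genes were below the lowest GABA-like value. The log2 difference was 3.77 ± 0.26 for Gad1 (edgeR adjusted p = 1.37e-11) and 3.61 ± 0.25 for Gad2 (edgeR adjusted p = 1.37e-11), or 4.84 and 4.62 with free RNA subtracted. Without centring of the libraries before clustering, the Gad1 difference was 4.54, and that of Gad2 was 1.17. Both the threshold of 1.2 UMIs of Slc17a6 and the centring were chosen after member levels had been seen. With Slc17a6 at 1 UMI per 10000 or more in place of 1.2, which adds sub-cluster 8 to the class, the Gad2 difference was 0.84 (edgeR adjusted p = 0.0113). The Gad2 level of the class was then 2.29, 1.69, 0.822, 1.78 and 2.22 in rats 1 to 5, overlapping that of GABA-like neurons. The p-values of Gad2 and Slc32a1 against the Slc17a6 sub-clusters thus also depend on a boundary set with their levels known. In this comparison 4 of 5 members were called, all higher in GABA-like neurons, against 5.19% of all genes called, 2.69% higher and 2.5% lower. Between dopaminergic-like neurons and the Slc17a6 sub-clusters, neither decarboxylase gene passed the test: the difference was -0.67 ± 0.37 for Gad1 and -0.22 ± 0.32 for Gad2 on the log2 scale (edgeR adjusted p = 0.286 and 0.774). For Gad2 this turned on sub-cluster 8 and on doublets: the difference was -2.99 without centring (edgeR adjusted p = 3.51e-10), -2.94 with sub-cluster 8 among the Slc17a6 sub-clusters (1.44e-08), 2.74 with it in the dopaminergic-like class (6.51e-06) and -0.84 with doublets kept (0.0388).

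The levels in dopaminergic-like neurons were set beside those in oligodendrocytes, a cell type that should lack the decarboxylase and VGAT genes. Oligodendrocytes held 0.249, 0.445, 0.216, 0.083 and 0.225 UMIs of Gad1 per 10000 in rats 1 to 5, and 0.546, 0.736, 0.062, 0.261 and 0.486 of Gad2. Gad1 and Slc32a1 were lower in dopaminergic-like neurons in each of the 4 rats with both classes, and Gad2 in 3 of them, with rat 3 higher from 8 UMIs against 2. The log2 difference of dopaminergic-like neurons from oligodendrocytes was -1.24 ± 0.31 for Gad1, -1.28 ± 0.27 for Gad2 and -1.55 ± 0.24 for Slc32a1 (edgeR adjusted p = 7.33e-04, 1.10e-04 and 1.53e-06). The Slc32a1 call was lost without the rat as a block (-1.46, edgeR adjusted p = 0.137), and the difference was -2.20 without rat 2. With sub-cluster 8 in the dopaminergic-like class, Gad2 turned to 1.72 (edgeR adjusted p = 1.75e-05) and the Slc32a1 call was lost (-0.32, 0.201). Slc6a11 and Abat were higher in dopaminergic-like neurons, by 2.23 ± 0.26 and 1.54 ± 0.14 (edgeR adjusted p = 8.73e-09 and 8.34e-11), so that all 5 members were called, 2 higher and 3 lower, beside 69.3% of all genes, 34.3% higher and 35% lower. The expected free RNA amounted to 52.6% to 218% of the Gad1 level, 47.9% to 60.4% of the Gad2 level and 91.4% to 200% of the Slc32a1 level of dopaminergic-like neurons. In oligodendrocytes it amounted to 76.8% to 131%, 60.1% to 483% and 103% to 125%. What the rest of the Gad2 level in dopaminergic-like neurons comes from was not tested. With free RNA subtracted, the Gad1 difference was 0.11 (edgeR adjusted p = 0.881) and that of Slc32a1 3.18 (0.0339). Both thus turned their direction, Gad1 without a call. Gad2 stayed lower in dopaminergic-like neurons and stayed called, while the differences of Slc6a11 and Abat were 8.01 and 2.20. The fold of a gene whose counts are nearly all subtracted depends on the small count added in the fit. The share subtracted was an upper estimate, so the subtraction can remove too much.

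Detection in single nuclei was also higher in GABA-like neurons. At the deposited depth, with a median of 5344 UMIs per GABA-like nucleus and 2858.5 per oligodendrocyte, Gad1 was detected in 56.4% ± 21.2 of GABA-like nuclei (SD, n = 5 rats) and 7.33% ± 4.83 of oligodendrocytes. After every nucleus was thinned to 1000 UMIs, the shares were 19.7% ± 5.30 and 2.36% ± 1.52. Gad2 was detected in 56.3% ± 19.6 of GABA-like nuclei and 13.1% ± 9.62 of oligodendrocytes, or 23.8% ± 5.28 and 3.97% ± 2.45 after thinning. Dopaminergic-like nuclei, with a median of 6586 UMIs, had Gad1 in 7.61% ± 7.06 and Gad2 in 14.4% ± 8.85 at the deposited depth (SD, n = 4 rats), slightly above the means of the shallower oligodendrocytes. After thinning the shares were 1.36% ± 1.83 and 1.84% ± 1.21, below the means of oligodendrocytes, and no expression was read from them.

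**Figure D1:**
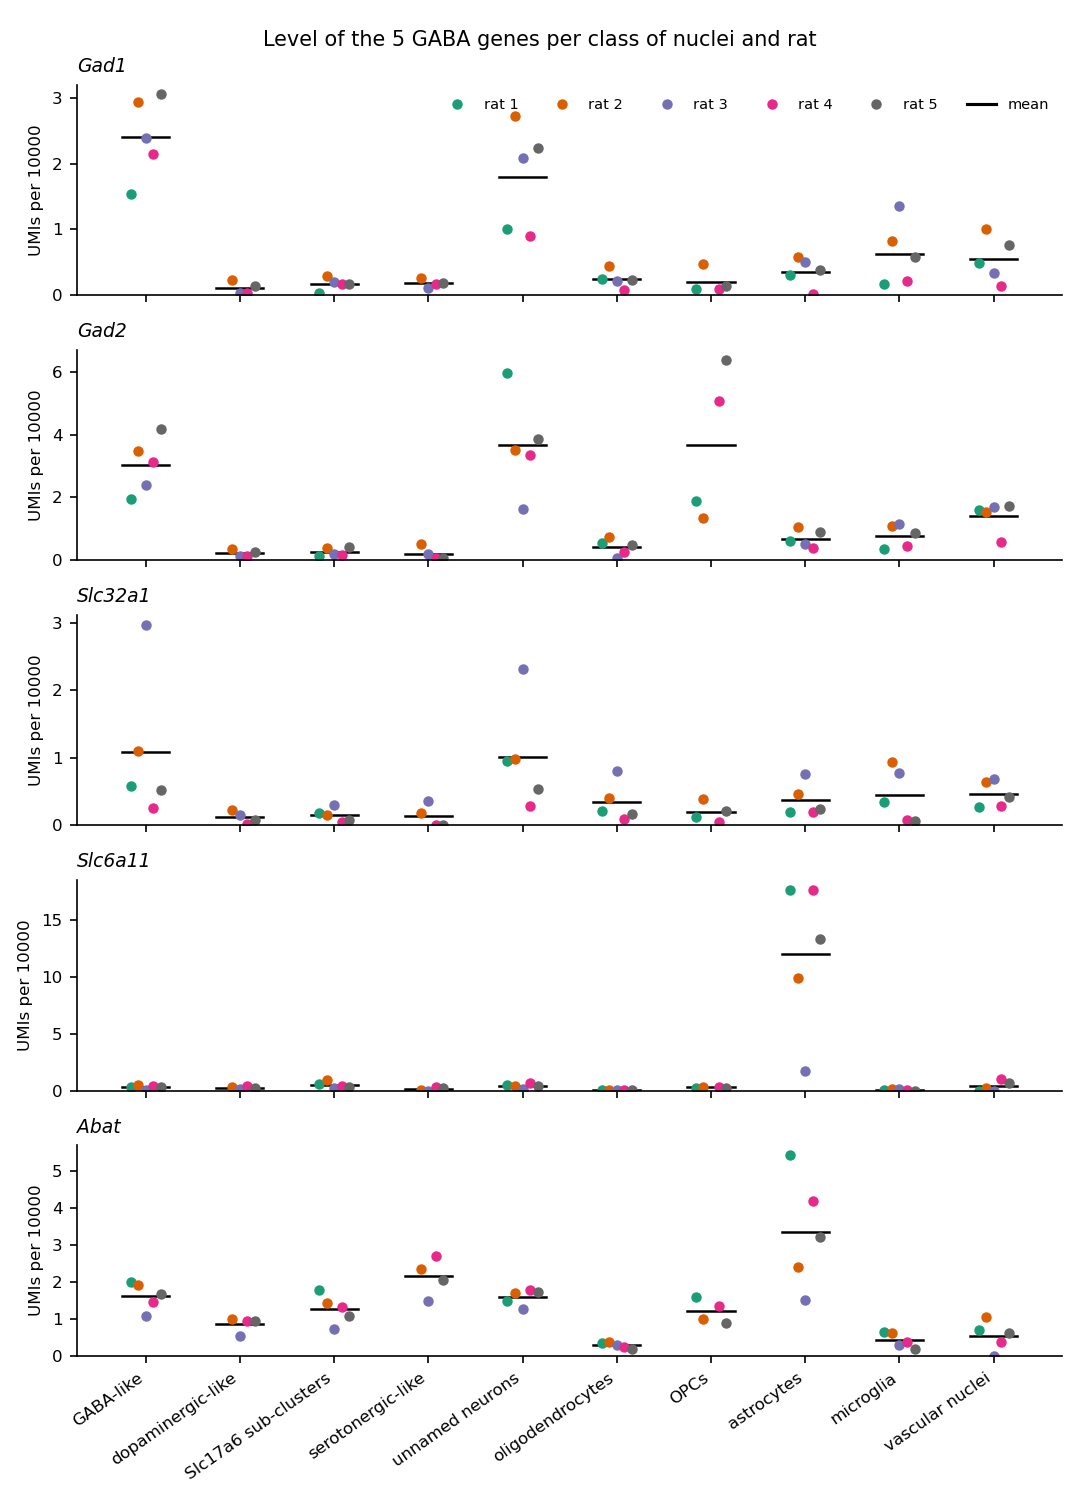
Level of each of the 5 genes (y axis, UMIs per 10000, linear) in 10 classes of nuclei (x axis). Points are rats and bars the mean over rats; Gad1 in GABA-like neurons lies between 1.53 and 3.05, above all dopaminergic-like values, and Slc6a11 reaches 1.76 to 17.7 in astrocytes and at most 1.01 in the other classes.

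Slc32a1 followed the decarboxylases, with a wide spread between rats. Its level in GABA-like neurons was 0.581, 1.10, 2.97, 0.25 and 0.529 UMIs per 10000 in rats 1 to 5, highest in rat 3 and lowest in rat 4. Dopaminergic-like neurons had 0.222, 0.159, 0.022 and 0.072 in rats 2 to 5, below the lowest GABA-like value. The log2 difference was 2.86 ± 0.23 (edgeR adjusted p = 4.30e-11) against dopaminergic-like neurons and 2.85 ± 0.24 (edgeR adjusted p = 6.25e-10) against the Slc17a6 sub-clusters, whose highest value, 0.304 in rat 3, lay above the GABA-like value of rat 4. These differences became 6.41 and 5.56 with free RNA subtracted, the first was 3.50 without rat 2, and the second was 1.69 without centring of the libraries. With sub-cluster 8 in the dopaminergic-like class or among the Slc17a6 sub-clusters, the respective differences were 1.60 and 1.48, both still called. The mean level of GABA-like neurons was 1.09 ± 1.10 (SD, n = 5) and 0.615 ± 0.354 without rat 3 (SD, n = 4). Droplets under 100 UMIs, taken to hold free RNA and no nucleus, had 1.93, 1.83, 7.46, 1.03 and 1.51 UMIs of Slc32a1 per 10000, more than GABA-like nuclei in each of the 5 rats. For Gad1 the droplets exceeded GABA-like nuclei in rat 1, with 2.33 against 1.53, and for Gad2 in rat 1, with 3.48 against 1.95, and in rat 3, with 2.50 against 2.40.

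Slc6a11 was an astrocyte gene in these nuclei. Its level in astrocytes was 17.6, 9.94, 1.76, 17.7 and 13.3 UMIs per 10000 in rats 1 to 5. Rat 3 was far below the other 4, yet its astrocyte level was above every value of the other classes, which reached at most 1.01. The astrocyte nuclei of rat 3 numbered 73, with summed astrocyte markers of 52.5 UMIs per 10000 against 36.0 to 52.9 in the other rats. Their oligodendrocyte markers were 59.4 against 15.4 to 38.2, and all 5 markers of both lists were detected in every rat. Without centring of the libraries before clustering, the astrocyte cluster held only 10 nuclei of rat 3. It then held 70, 607, 112 and 226 nuclei of rats 1, 2, 4 and 5. The part of the clustering and of other cells' markers in the low Slc6a11 level of rat 3 was not tested. Against all neurons the log2 difference was 4.94 ± 0.30 (edgeR adjusted p = 1.52e-15). The mean astrocyte level was 12.1 ± 6.61 (SD, n = 5) and 14.6 ± 3.74 without rat 3 (SD, n = 4). Slc6a11 was detected in 71.5% ± 28.3 of astrocytes at the deposited depth and 54.2% ± 24.6 after thinning, against 1.81% ± 1.39 and 0.56% ± 0.16 of oligodendrocytes.

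Among neurons, Slc6a11 was low but not uniform. It did not pass the test between GABA-like and dopaminergic-like neurons (0.16 ± 0.23 on the log2 scale, edgeR adjusted p = 0.736), except without centring of the libraries (1.01, edgeR adjusted p = 0.0124). Its log2 difference of dopaminergic-like neurons from the Slc17a6 sub-clusters was -0.74 ± 0.24 (edgeR adjusted p = 0.0366), and it was the only member called there, where 14% of all genes were called, 7.51% higher and 6.5% lower. That call was lost in 9 of 16 alternatives, and without rat 2 the difference was -0.27 with an adjusted p of 0.68. The Slc17a6 class of rat 2 included 139 nuclei of sub-cluster 11 (led by Dach1 and Ttc29), which held 1.80 UMIs of Slc6a11 per 10000, or 149 UMIs, beside 0.810, or 6 UMIs, in rat 3. The highest neuronal value was in GABA-like sub-cluster 19 (led by Myo5b and Meis2), with 2.04 in rat 2 (83 UMIs) and 0.491 in rat 3 (4 UMIs). Only these 2 rats had 10 or more nuclei in either sub-cluster. The rat 2 values of both sub-clusters were above the lowest astrocyte level, 1.76 in rat 3. They were below the astrocyte levels of the other rats, which were 9.94 or more.

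Abat, the degrading enzyme, was present in astrocytes and in all neuron classes. Its level in astrocytes was 5.43, 2.39, 1.51, 4.19 and 3.22 UMIs per 10000 in rats 1 to 5, and 1.10 ± 0.20 higher than in neurons on the log2 scale (edgeR adjusted p = 1.14e-05). In GABA-like neurons it was 2.01, 1.93, 1.07, 1.45 and 1.67, and in dopaminergic-like neurons 0.995, 0.524, 0.934 and 0.942 in rats 2 to 5. Each GABA-like value was above each dopaminergic-like value, and the log2 difference was 0.79 ± 0.13 (edgeR adjusted p = 4.43e-05), a call that thinning to 1000 UMIs per nucleus ended (0.68, edgeR adjusted p = 0.0529). Against the Slc17a6 sub-clusters Abat was 0.42 ± 0.13 higher in GABA-like neurons (edgeR adjusted p = 0.0497), a call lost in 13 of 16 alternatives. Serotonergic-like neurons held 2.33, 1.49, 2.70 and 2.06 in rats 2 to 5, above the GABA-like value in each of the 4 rats that had both, although the ranges overlapped. OPCs held 1.58, 0.998, 1.33 and 0.897 UMIs of Abat per 10000 in rats 1, 2, 4 and 5, and were 1.86 ± 0.24 above oligodendrocytes on the log2 scale (edgeR adjusted p = 3.39e-08), or 2.49 with free RNA subtracted.

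The order of classes differed between the members. Gad1 was highest in GABA-like neurons, above the unnamed neurons in 5 of 5 rats with overlapping ranges. Below these came microglia, vascular nuclei, astrocytes, oligodendrocytes, OPCs, serotonergic-like neurons, the Slc17a6 sub-clusters and dopaminergic-like neurons, and of these neighbouring classes only the last pair differed by more than the SD of its difference between rats (0.099 ± 0.066, n = 4). The expected free RNA had a median of 67.3% of the Gad1 level in microglia and 106% in vascular nuclei, where free RNA was estimated at up to 42.0% and 60.7% of UMIs, so their rank is not read as expression. For Gad2 the OPC mean (3.67 ± 2.45, n = 4), the unnamed neurons (3.65 ± 1.54, n = 5) and GABA-like neurons (3.02 ± 0.87, n = 5) could not be ranked beyond their spread, whereas GABA-like neurons and vascular nuclei (1.42 ± 0.48, n = 5) did not overlap. For Slc32a1, GABA-like and unnamed neurons could not be ranked, with the former higher in 2 of 5 rats. Slc6a11 in astrocytes did not overlap the next class, the Slc17a6 sub-clusters, and the ranges of all classes below it overlapped their neighbours. For Abat, astrocytes were above serotonergic-like neurons in 4 of 4 rats by 0.68 ± 0.75 UMIs per 10000 (SD), a step smaller than its spread.

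All 5 members passed the test between astrocytes and neurons, 2 higher and 3 lower, with 57.8% of 11226 genes passing, 26% higher and 31.8% lower. The log2 difference of astrocytes from neurons was -2.19 ± 0.25 for Gad1 (edgeR adjusted p = 3.34e-09), -1.58 ± 0.33 for Gad2 (edgeR adjusted p = 1.06e-04) and -0.79 ± 0.23 for Slc32a1 (edgeR adjusted p = 3.61e-03). The Slc32a1 call was lost in 3 of 14 alternatives. With free RNA subtracted the 3 differences were -6.66, -2.83 and -4.73. The expected free RNA amounted to 86.4% to 441% of the astrocyte level of Gad1 and 65.7% to 285% of that of Slc32a1, but only to 0.28% to 3.2% of that of Slc6a11.

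The other genes of the pathway were taken from a list of 15 transporters and enzymes of GABA and glutamate, of which 11 were tested in the neuron classes and 13 in the major types. Aldh5a1, encoding the dehydrogenase that acts after GABA transaminase, was 0.63 ± 0.14 higher in GABA-like than in dopaminergic-like neurons on the log2 scale (edgeR adjusted p = 1.36e-03). Aldh1a1, an aldehyde dehydrogenase gene known for an alternative route to GABA in some dopamine neurons, differed by -4.12 ± 0.31 (edgeR adjusted p = 1.35e-11). Between these classes 4 of 11 genes passed, 3 higher and 1 lower, beside 17.5% of all genes, and the median log2 difference was -0.00099 over the list. Against the Slc17a6 sub-clusters 2 of 11 passed, beside 5.19% of all genes, both higher in GABA-like neurons, among them Maob, a monoamine oxidase gene. Between dopaminergic-like neurons and the Slc17a6 sub-clusters 4 of 11 passed, 1 higher and 3 lower, beside 14% of all genes, and between dopaminergic-like neurons and oligodendrocytes 9 of 11, 4 higher and 5 lower, beside 69.3%.

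Between astrocytes and neurons all 13 tested genes of that list passed, 9 higher in astrocytes and 4 lower, beside 57.8% of all genes, with a median log2 difference of 0.99. Slc38a3, encoding a glutamine transporter of glia, was 5.89 ± 0.34 higher, Glul, the glutamine synthetase gene, 2.87 ± 0.20 higher, and Glud1, the glutamate dehydrogenase gene, 2.40 ± 0.16 higher (edgeR adjusted p = 2.69e-16, 4.38e-14 and 1.20e-14). Gls2, a glutaminase gene, differed by -3.32 ± 0.25 (edgeR adjusted p = 2.01e-13). Between OPCs and oligodendrocytes 6 of 13 passed, 4 higher and 2 lower, a share near the 44.9% of all genes, among them Glul with -2.46 ± 0.23 (edgeR adjusted p = 2.54e-11).

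Within the neurons, the balance of Gad1 and Gad2 varied between sub-clusters. Because a gene's length and capture affect its UMIs, only the share of Gad1 among the summed Gad1 and Gad2 UMIs was compared between groups. GABA-like neurons as a whole had a Gad1 share of 44.5% ± 3.51 (SD, n = 5 rats), and the empty droplets 40.5% ± 8.04. Sub-cluster 4 (led by Meis2 and Nox4, named from the Pax7 list) had 73.8%, 84.0% (21 Gad1 and 4 Gad2 UMIs), 72.9% and 81.5% in rats 2 to 5. Sub-cluster 5 (led by Sorcs1 and Sulf1, with 4 of 4 midbrain factors raised) had 42.5%, 56.1%, 43.3% and 49.6% in the same rats. The log2 ratio of Gad1 to Gad2 was 1.94 ± 0.14 higher in sub-cluster 4 (SD), in 4 of 4 rats, and the ranges did not overlap. Sub-cluster 0 (led by Meis2 and Fstl4), the largest, had 37.4% ± 4.87 (n = 5) and a log2 ratio that differed from sub-cluster 4 by -2.63 ± 0.25, lower in 4 of 4 rats. A high Gad1 share was also found in the unnamed sub-cluster 10 (led by Dach1 and Pax3), with 60.3% in rat 2 and 83.3% in rat 3. No test was run, since an exact sign-flip test over 4 rats cannot give a p below 0.125. The Gad1 level was 3.42 ± 0.22 in sub-cluster 4 and 3.75 ± 0.40 in sub-cluster 5 (UMIs per 10000, SD, n = 4), whereas the Gad2 level was 0.99 ± 0.37 and 4.13 ± 0.80. Of the 324 nuclei of sub-cluster 4, 205 came from rat 2. Its score of astrocyte markers was 0.773, where sub-clusters above 1 were left out as mixed. With doublets kept, a sub-cluster of 367 nuclei also led by Meis2 and Nox4 scored 1.06 and was left out. The part of astrocyte markers in the Gad1 share of sub-cluster 4 was not tested.

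Sub-cluster 8 held Gad2 nearly without Gad1. These 251 nuclei from all 5 rats were led by Slc26a7 and Lmx1a and could not be named: 6 of 8 dopaminergic markers were raised, and Slc17a6 was 1.04 ± 0.16 UMIs per 10000. Gad2 was 6.47, 6.34, 2.94, 5.96 and 5.73 UMIs per 10000 in rats 1 to 5, lowest in rat 3 and above the GABA-like mean of 3.02 in the other 4. Gad1 was 0.138, 0.30, 0.086, 0.015 and 0.176, against 0.035 to 0.295 in the Slc17a6 sub-clusters. Over all 5 rats there were 26 Gad1 UMIs and 1048 Gad2 UMIs, a Gad1 share of 2.54% ± 1.55 (SD, n = 5), below every rat of the GABA-like class. Slc32a1 was 0.895, 1.2, 1.99, 0.339 and 0.410, highest in rat 3 as in GABA-like neurons, and Th, the tyrosine hydroxylase gene of dopamine synthesis, was 2.15 ± 0.94. Gad2 without Gad1 was found in 90.2% ± 8.29 of the nuclei with either gene at the deposited depth and in 96.4% ± 5.66 after thinning, against 21.7% ± 10.8 and 48.3% ± 4.93 in GABA-like neurons. Without centring of the libraries before clustering, 249 of these nuclei joined the Slc17a6 sub-clusters, and the difference of Gad2 between GABA-like neurons and that class then still passed the test (edgeR adjusted p = 8.80e-05).

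**Figure D2:**
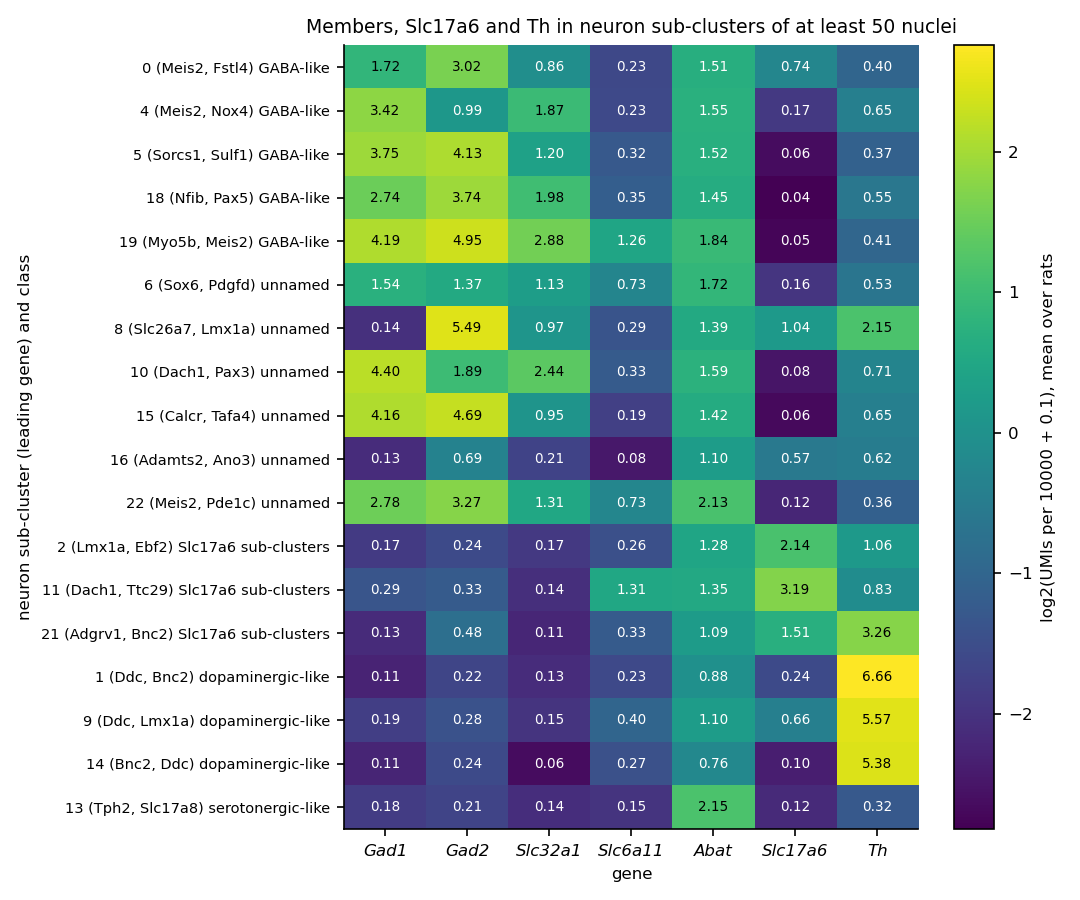
Mean level over rats of the 5 genes, Slc17a6 and Th (columns) in 18 neuron sub-clusters of at least 50 nuclei (rows, with their leading genes and class). Numbers are UMIs per 10000 and colours their log2 after adding 0.1; sub-cluster 8 has Gad2 at 5.49 and Gad1 at 0.14.

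**Figure D3:**
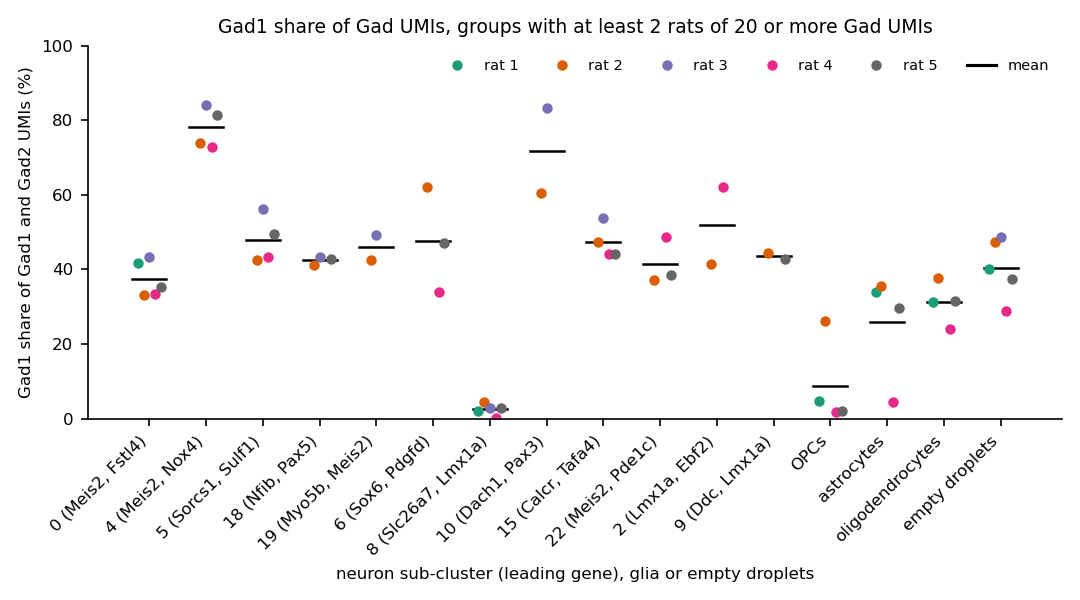
Share of Gad1 among Gad1 and Gad2 UMIs (y axis, %) in neuron sub-clusters, glia and empty droplets (x axis) with at least 2 rats of 20 or more such UMIs. Points are rats and bars means; sub-cluster 4 lies at 72.9% to 84.0%, and sub-cluster 8 at 0.26% to 4.52%.

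Among the glia, the mean level of Gad2 was highest in OPCs. Its level in OPCs was 1.89, 1.33, 5.08 and 6.39 UMIs per 10000 in rats 1, 2, 4 and 5, and in oligodendrocytes 0.546, 0.736, 0.062, 0.261 and 0.486 in rats 1 to 5. The groups did not overlap, rats 4 and 5 were above rats 1 and 2, and the log2 difference was 2.82 ± 0.33 (edgeR adjusted p = 6.46e-09), or 4.14 with free RNA subtracted. Droplets under 100 UMIs held 3.48, 1.96, 1.55 and 2.25 UMIs of Gad2 per 10000 in rats 1, 2, 4 and 5. This was more than in OPCs in rats 1 and 2 and less in rats 4 and 5. Gad1 in OPCs was 0.095, 0.474, 0.088 and 0.139 and did not pass the test against oligodendrocytes (log2 difference -0.34 ± 0.32, edgeR adjusted p = 0.42). The counts were 66 UMIs of Gad1 and 1009 of Gad2 over 4 rats, a Gad1 share of 8.71% ± 11.8 (SD), with 26.3% in rat 2 and 1.70% to 4.76% in the others. Gad2 was detected in 56.5% ± 18 of OPC nuclei at the deposited depth and 24.9% ± 17.1 after thinning (SD, n = 4). Of the 5 members 3 were called between OPCs and oligodendrocytes, all higher in OPCs (Gad2, Slc6a11 and Abat), beside 44.9% of all genes called, 23.5% higher and 21.4% lower. Slc6a11 was 2.21 ± 0.42 higher on the log2 scale (edgeR adjusted p = 3.94e-05), with a level of 0.253 to 0.343 UMIs per 10000 in OPCs. With free RNA subtracted this difference was 7.95, and under the other alternatives it was 1.95 to 2.28.

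The variation of Gad2 between OPCs of different rats was set beside the markers of other cells. The summed level of all 4 OPC markers was 41.6, 33.4, 46.5 and 42.8 UMIs per 10000 in rats 1, 2, 4 and 5, and that of the 5 neuron markers was 11.6, 13.7, 11.2 and 11.8, with each marker of both lists detected in each rat. Oligodendrocyte markers were 13.1, 30.1, 11.9 and 11.5. The expected free RNA amounted to 2.85% to 25.9% of the OPC level of Gad2. The part of the other cells' markers and of free RNA in the variation of Gad2 was not tested. Myo3a, an unconventional myosin gene, is the protein-coding gene next to Gad2 in the RefSeq table, 4.06 kb away. Its level in OPCs was 0.095, 0.232, 1.95 and 2.38 UMIs per 10000 in rats 1, 2, 4 and 5, high in the rats in which Gad2 was high, and 0.03 ± 0.02 in oligodendrocytes (SD, n = 5). In sub-cluster 8 Myo3a was 1.0 ± 0.65 and in GABA-like neurons 0.235 ± 0.157 (SD, n = 5). Reads that run from 1 gene into its neighbour cannot be told apart in these counts.

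**Figure D4:**
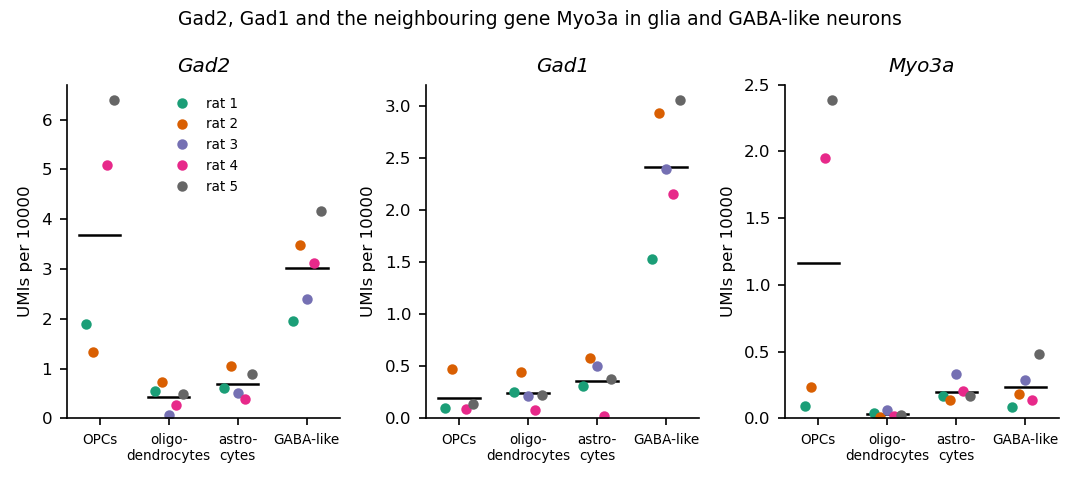
Level of Gad2, Gad1 and the neighbouring gene Myo3a (y axes, UMIs per 10000, each panel on its own linear scale) in OPCs, oligodendrocytes, astrocytes and GABA-like neurons. Points are rats and bars means; in OPCs, rats 4 and 5 are above rats 1 and 2 in Gad2 and in Myo3a.

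Co-detection was examined in the 4704 neurons, each thinned to 1000 UMIs so that depth was the same for every nucleus. Gad1 and Gad2 were detected together in 4 of 138, 75 of 1641, 25 of 1413, 13 of 754 and 34 of 758 neurons of rats 1 to 5. The log2 odds ratio of their detection was above 0 in 5 of 5 rats, from 0.75 to 1.87, with a mean of 1.12 ± 0.44 (SD). The exact two-sided sign-flip permutation test gave p = 0.0625, the smallest value that 5 rats allow, and 0.104 after adjustment over 5 pairs. Gad2 with Slc32a1 gave 2.01 ± 1.73, above 0 in 5 of 5 rats (exact p = 0.0625, adjusted 0.104), with 5.02 in rat 1 and 0.71 to 1.66 in the others, so that its mean was 1.25 without rat 1. Gad1 with Slc32a1 gave 1.26 ± 1.26, above 0 in 4 of 5 rats (exact p = 0.125, adjusted 0.125), since no neuron of rat 4 held both. At the deposited depth the means were 2.59, 1.92 and 2.09 for these pairs in the same order.

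Within the GABA-like neurons alone the log2 odds ratios rested partly on single rats. Gad1 with Gad2 gave 1.51, 0.19, 0.10, -0.11 and 0.53 in rats 1 to 5, with a mean of 0.44, or 0.18 without rat 1, which had 74 such nuclei and 3 with both genes. Gad2 with Slc32a1 gave 3.75, 0.34, 0.60, 1.88 and 0.82, with a mean of 1.48, or 0.91 without rat 1. Gad1 with Slc32a1 gave 1.66, 0.91, 0.82, -1.44 and 1.51, with a mean of 0.69, or 1.22 without rat 4, where no nucleus held both, and 0.45 without rat 1, where 1 did. Neurons outside that class include the unnamed neurons, most of which held Gad1, Gad2 or Slc32a1 at the deposited depth. In the neurons outside that class, nuclei with both genes numbered 1, 32, 7, 1 and 7 for Gad1 with Gad2 in rats 1 to 5, 4, 11, 16, 0 and 0 for Gad2 with Slc32a1, and 1, 7, 16, 0 and 1 for Gad1 with Slc32a1. With so few, the 0.5 added to each count sets several of the odds ratios, and their means were not compared with those of GABA-like neurons. At the deposited depth 75.1% ± 15.2 of GABA-like nuclei held at least 1 UMI of Gad1, Gad2 or Slc32a1, against 23.9% ± 12.8 of oligodendrocytes (SD, n = 5). After thinning the shares were 42.2% ± 8.70 and 8.92% ± 4.04. Of the GABA-like nuclei with a decarboxylase gene, 57.2% ± 20.6 held both at the deposited depth and 14.6% ± 3.36 after thinning. All 3 genes were found together in 19.0% ± 10.0 of GABA-like nuclei at the deposited depth and in 0.27% ± 0.31 of the shallower oligodendrocytes, and after thinning in 0.71% ± 0.48 of GABA-like nuclei and in no oligodendrocyte.

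Detection of GABA genes and of Slc17a6 was opposed in direction in all rats, without passing the test. The log2 odds ratio of any of Gad1, Gad2 and Slc32a1 with Slc17a6 was -1.87, -1.64, -2.20, -2.55 and -1.09 in rats 1 to 5, below 0 in every rat (exact p = 0.0625, adjusted 0.104). With Th it was 0.60, -0.94, -1.08, -1.74 and -1.22, above 0 in rat 1 only (exact p = 0.125, adjusted 0.125). In GABA-like neurons alone the value with Th was -0.21, 0.16, 1.79, -0.35 and -0.62, below 0 in 3 of 5 rats. Its mean of 0.15 rested on rat 3, with 4 nuclei holding both, and was -0.26 without that rat, against 0.15 to 0.35 without each other rat. The expected free RNA amounted to 92.6% to 269% of the Th level in GABA-like neurons, so Th there was not read as expression. In dopaminergic-like neurons it amounted to 3.85% to 14.7%. In sub-cluster 8 these genes were found in the same nuclei: at the deposited depth 39.9% ± 16.9 of its nuclei held a GABA gene with Slc17a6 and 53.7% ± 19.9 a GABA gene with Th, against 8.52% ± 6.48 and 18.4% ± 15.5 of GABA-like nuclei (SD, n = 5). A GABA gene with Slc17a6 was found in 17.5% ± 9.60 of nuclei of the Slc17a6 sub-clusters (SD, n = 5), and a GABA gene with Th in 22.6% ± 16.6 of dopaminergic-like nuclei (SD, n = 4). Within the same rats sub-cluster 8 was higher in 5 of 5 for the first pair, by 22.3 ± 12.9 percentage points, and in 4 of 4 for the second, by 29.5 ± 7.23 (SD), although the ranges over rats overlapped. After thinning the shares were 3.81% ± 2.86 and 11.4% ± 4.83, against 0.59% ± 0.59 and 1.99% ± 2.05 of GABA-like nuclei, 0.55% ± 0.75 of the Slc17a6 sub-clusters for the first pair and 2.24% ± 1.39 of dopaminergic-like nuclei for the second, with sub-cluster 8 higher than these in 4 of 5 and 4 of 4 rats. In oligodendrocytes 2.28% ± 3.14 and 7.88% ± 7.85 of nuclei held such pairs at the deposited depth, and 0.11% ± 0.16 and 1.07% ± 1.42 after thinning. The thresholds that kept sub-cluster 8 out of both classes were set with member levels known. At the deposited depth 51.5% to 98.2% of its nuclei per rat held a GABA gene. The shares were 10.6% to 39.2% in the Slc17a6 sub-clusters and 6.08% to 43.4% in dopaminergic-like nuclei. Pair shares rise with such single-gene shares, and whether the pairs exceeded what these give was not tested. Droplets under 100 UMIs held 4.67 to 9.19 UMIs of Th per 10000, above the mean Th level of sub-cluster 8. They were also above the Th level of dopaminergic-like neurons in rat 2 (9.10 against 6.84) and rat 3 (9.19 against 5.52). The expected free RNA is only a share of the droplet level, 3.36% to 13.3% for neurons. The part of free RNA in the Th detected in sub-cluster 8 was not tested.

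**Figure D5:**
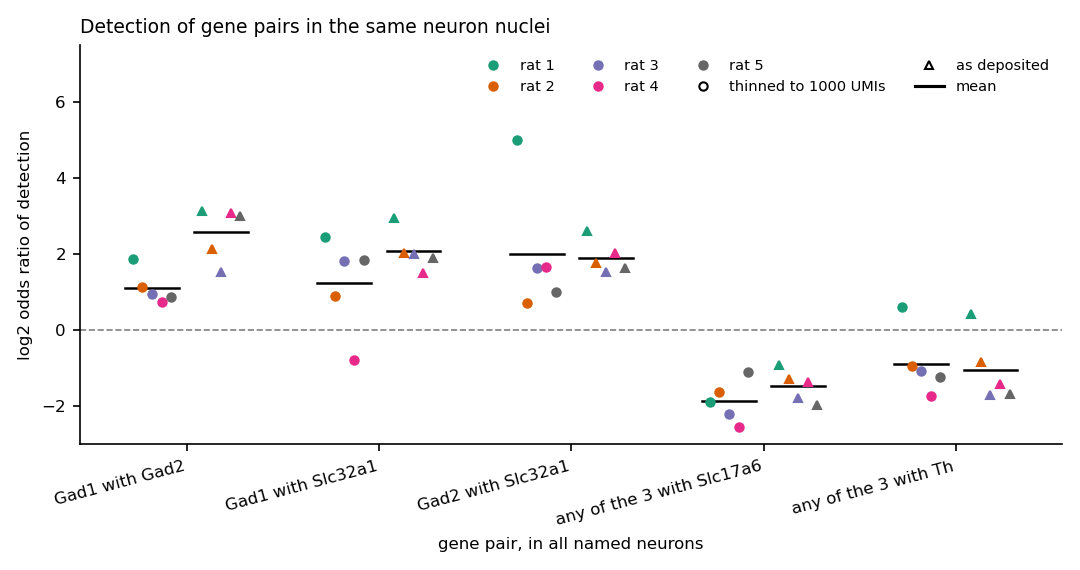
Log2 odds ratio of detection (y axis) of 5 gene pairs in the same neurons (x axis). Circles are rats with nuclei thinned to 1000 UMIs, triangles rats at the deposited depth and bars means; "any of the 3" means Gad1, Gad2 or Slc32a1, and its 5 values with Slc17a6 lie below 0.

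In astrocytes, detection of Abat was not tied to that of Slc6a11 in 1 direction. The log2 odds ratio of the pair after thinning was 0.46, 0.59, -0.31, -0.10 and -0.27 in rats 1 to 5. Of the astrocytes of rat 2 with Slc6a11, 22.4% also held Abat, against 16.1% of those without it.

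The genes with the profile most like each member were found by Pearson correlation of log2(CPM + 10) of the mean over rats, as a description. Over 18 neuron sub-clusters, which share libraries, and 10009 genes, the genes closest to Gad1 included Slc32a1 (r = 0.90), Erich2 (0.86), Gtf2f2 (0.80) and Gng7 (0.78). Gad2 was closest to Slc32a1 (r = 0.86), Myo3a (0.86), Erich2 (0.77), Gad1 (0.75) and Fam104a (0.74). The genes closest to Slc32a1 included Gad1 (r = 0.90), Gad2 (0.86), AABR07006038.1 (0.79) and Erich2 (0.78). Erich2 lies next to Gad1 in the RefSeq table, 21.8 kb away on the same strand. Over 22 points, the sub-clusters and 4 glial classes, the genes closest to Slc6a11 included Acss3, Amot, Gcnt4 and Mras (r = 0.82 to 0.83), and Abat was closest to Tnik (0.88), Acsl6 (0.87), Ntrk2, Sipa1l3 and Pitpnm2 (0.83 each). Between the members, r over the 18 sub-clusters was 0.61 for Gad1 with Abat and 0.32 for Slc6a11 with Abat.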

How the data were processed

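Nuclei from frozen VTA punches were profiled by droplet-based snRNA-seq, with 1 library for each of 5 rats. The authors deposited unfiltered raw UMI counts per gene and barcode; Cell Ranger 8.0.1 is named in the submitters' processing notes and Cell Ranger 4 in the file headers, a difference that could not be settled, and the genome build is not given in the sources used here. In the study's methods, ambient RNA removal, integration and doublet removal came later, so the deposited counts precede them. All 5 libraries were used.

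Barcodes were kept at 1000 or more UMIs, more than 200 and fewer than 5000 genes and under 5% Mt- UMIs. Scrublet's own threshold marked 10 of 22084 barcodes, so the highest scores were removed at 0.8% per 1000 nuclei of a library. Nuclei were clustered without the 5 members (scanpy 1.11.5, leidenalg 0.10.2; 2000 variable genes, 30 principal components, 20 neighbours, resolution 1), and neurons were clustered again. Libraries were centred before principal components. Centring and the naming thresholds were chosen after clusters and member levels had been seen. The thresholds were 3 raised markers of a class (7 of 8 for dopaminergic-like neurons) and no clusters with mixed markers or low UMIs. This left 4903 nuclei out. Clusters of 1777 and 1655 of them had median depths of 1347 and 1249 UMIs. The second was led by Slc6a3 and Th, with 1332 nuclei from rat 2. Sub-clusters 7 (278 nuclei, 8 of 8 dopaminergic markers raised) and 3 (416 nuclei, 7 of 8) were left out for their oligodendrocyte markers. Dopaminergic-like levels therefore describe only the nuclei kept. No sub-cluster could be called glutamatergic-like from 3 markers, and unnamed sub-clusters with at least 1.2 UMIs of Slc17a6 per 10000 took that place. The members and the lists were chosen with earlier results of these data known.

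UMIs were summed per class and rat (at least 10 nuclei) and tested with edgeR 4.0.16 (R 4.3.3; quasi-likelihood, TMM, filterByExpr, rat as a block) over all genes, with Benjamini-Hochberg adjustment and a threshold of 0.05. All neuron classes and oligodendrocytes entered 1 fit, and all major types another. Classes of a rat come from the same animal, and deviations from class means correlated above 0.1 in every rat for 24 of 25 class pairs, with a lowest value of 0.0514. With rat as a block, edgeR p-values measure how differences between classes varied over rats, and not the spread of levels between rats. Levels are UMIs per 10000 of a class, without scaling for gene length. Co-detection odds ratios had 0.5 added to each of 4 counts and were tested over rats with an exact permutation test that flips signs, two-sided. Alternatives were DESeq2 1.42.0, its size factors, no count filter, no block, doublets kept, thinning to 1000 UMIs, subtraction of free RNA (profile of droplets under 100 UMIs), at least 2000 UMIs, co-detection without thinning or from 2 UMIs, each rat left out, and, added after seeing the data, libraries not centred, dopaminergic-like neurons from 6 of 8 markers, Slc17a6 sub-clusters from 1 UMI per 10000 and co-detection inside and outside the GABA-like class (also with each rat left out). Scripts were tested on simulated data. Genes named are the members, the list of 15 pathway genes, Slc17a6, Th and the 5 genes most like each member, at 20 CPM or more in 1 group. Markers, the leading genes of sub-clusters and neighbours on the chromosome were named in addition. Some of these genes are not reported here.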

Additional observations from a re-analysis of the deposited data

Results flagged for a closer look

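In 5 of 105 groups of 4 or 5 rats, 1 rat lay further from the others than Dixon's 95% limit, which chance passes in about 1 of 20 groups. Abat in dopaminergic-like neurons was 0.524 UMIs per 10000 in rat 3, against 0.934 in the next rat. Gad1 in OPCs was 0.474 in rat 2, above the next value of 0.139. Gad2 in vascular nuclei was 0.578 in rat 4, below the next value of 1.52. Gad2 in neuron sub-cluster 8 was 2.94 in rat 3, below the next value of 5.73. The log2 odds ratio of Gad2 with Slc32a1 in neurons was 5.02 in rat 1, above the next value of 1.66, and rested on 7 nuclei with both genes among 138.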

How the results depend on the processing

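Of 460 log2 differences of the members under 16 alternatives (14 for the major types), 418 kept their side of the threshold, 28 lost the call, 8 gained one, and 6 turned with a call in either fit. Of the 418, 6 changed sign without a call in either fit: Slc6a11 between GABA-like and dopaminergic-like neurons without rat 2 (-0.02), Slc6a11 between GABA-like neurons and the Slc17a6 sub-clusters without centring (0.47), Slc32a1 between dopaminergic-like neurons and those sub-clusters (0.09 at 2000 UMIs or more, 0.18 without rat 3, 0.11 without rat 4) and Gad1 between OPCs and oligodendrocytes with free RNA subtracted (1.31). For the 15 listed pathway genes the numbers were 1005 of 1064, 52, 6 and 1, and 87 of the 1005 changed sign without a call. With free RNA subtracted, Gad1 between dopaminergic-like neurons and oligodendrocytes was 0.11 (edgeR adjusted p = 0.881), Slc32a1 there 3.18 (0.0339), and Slc32a1 and Aldh1a1 between OPCs and oligodendrocytes 5.33 (0.0114) and 3.87 (0.0483). With sub-cluster 8 in the dopaminergic-like class, Gad2 and Slc32a1 against the Slc17a6 sub-clusters were 2.74 (edgeR adjusted p = 6.51e-06) and 1.23 (0.00708), and Gad2 against oligodendrocytes 1.72 (1.75e-05). With it among the Slc17a6 sub-clusters, Slc32a1 and Abat were called between dopaminergic-like neurons and those (-1.37 and -0.45, 5.46e-04 and 0.0217). The subtraction of free RNA also moved 14 called differences of the members by over 1.5 times in fold without a change of call or direction, up to 8.01 for Slc6a11 between dopaminergic-like neurons and oligodendrocytes. The mean of co-detection kept its direction in 105 of 110 values, and turned for GABA genes with Th in GABA-like neurons only (0.15, and 0.24, 0.15, 0.28 and 0.35 without rats 1, 2, 4 and 5), where 3 of 5 rats stayed below 0 and the mean was -0.26 without rat 3. Without the replicate block, 818 genes in place of 2086 were called between GABA-like and dopaminergic-like neurons, 162 in place of 620 between GABA-like neurons and the Slc17a6 sub-clusters, 625 in place of 1673 between dopaminergic-like neurons and those sub-clusters, 5318 in place of 8268 between dopaminergic-like neurons and oligodendrocytes, and 4194 in place of 6494 between astrocytes and neurons. Thinning to 1000 UMIs, which leaves fewer counts, gave 844, 283, 614, 4354 and 3653 in the same order, and 2911 in place of 5035 between OPCs and oligodendrocytes. Without centring the first count was 1361, and with free RNA subtracted the second was 392; the cause was not tested. No count moved by over 1.5 times without 1 rat. DESeq2's scaling moved the median log2 difference of astrocytes from neurons from -0.07 to 0.10, and the calls from 2919 higher and 3575 lower to 3600 and 2884 (DESeq2) or 3673 and 2931 (its size factors in edgeR). Slc32a1 lost its call there without the block (-1.13, edgeR adjusted p = 0.156), after thinning (-0.70, 0.0601) and without centring (-0.57, 0.0705). Doublets kept gave Gad2 a call between dopaminergic-like neurons and the Slc17a6 sub-clusters (-0.84, edgeR adjusted p = 0.0388). Without centring Slc32a1 and Abat were called there (-1.27 and -0.46, 0.00481 and 0.0369), as was Slc6a11 between GABA-like and dopaminergic-like neurons (1.01, 0.0124), while thinning ended the call of Abat between the latter (0.68, 0.0529). Clustering with centred libraries had been planned as the alternative and became the main choice. Depth limits detection: 16 of 50 shares of nuclei moved by less than 1 SD on thinning, and rats with under 10 nuclei of a class gave no value.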
